A study of Mus musculus with 2 samples.

Results

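Ccl12-high microglia were taken as cells with at least 10 raw Ccl12 UMIs and fewer than 5 UMIs of Ccl3 and Ccl4 together. A UMI is the tag that marks 1 captured RNA molecule. Cells had first to hold at least 500 UMIs and 300 genes, and no more than 10% of their UMIs could come from the mitochondrial genome. The rule kept 343 of 20222 cells, namely 51 of 9860 in the plasma-negative and 292 of 10362 in the plasma-positive library. The members were thus chosen by their Ccl12, Ccl3 and Ccl4 counts, and values of those 3 genes are given only as a description.

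The cells were sorted microglia from the hypothalamus of young wild-type mice, several of which were pooled, per the labels. All mice had received plasma protein carrying a dye 20 hours earlier. Flow sorting then separated microglia with the dye (plasma-positive) from microglia without it (plasma-negative), and each sort gave 1 Chromium 3′ library. The sort and the library therefore cannot be told apart, no difference has a replicate check, and no test was run. Intervals are exact, at 95%, and cover counting error only.

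Ccl12 (also called MCP-5) is a secreted chemokine of the mouse that binds CCR2, the receptor through which monocytes are drawn out of the blood. Its gene stands in a cluster with Ccl2, Ccl7, Ccl11, Ccl8 and Ccl1, which encode related attractants of monocytes and other leukocytes. Microglia are the resident macrophages of the brain parenchyma. When type I interferon binds its receptor on such a cell, JAK kinases activate a complex of STAT proteins and IRF9, which binds the interferon-stimulated response element (ISRE) upstream of antiviral genes such as Isg15 and the Ifit family. Ccl3 and Ccl4 encode other chemokines.

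The label was checked against marker genes. All 51 and all 292 Ccl12-high cells held at least 4 of 11 microglia markers, and the least frequent marker was found in 72.5% and 63.0% of them. No Ccl12-high cell held 4 or more markers of any of 13 other cell types. Of 10 border-associated macrophage markers, 8 were at 0 in plasma-negative and 3 in plasma-positive Ccl12-high cells, with Lyve1, F13a1 and Clec12a at 0 in both. The most frequent was Mrc1 in 7.84% of the plasma-negative cells, against 0.654% of matched cells, and Ccl24 in 8.22% of the plasma-positive cells, against 5.26%. At 0 in both libraries were also the monocyte genes Ly6c2, Chil3 and F10. The summed border macrophage list of 10 genes stood at 31.5 CPM (UMIs of the gene per 1000000 UMIs; here from 8 UMIs) in plasma-negative Ccl12-high cells and at 44.2 CPM in plasma-positive ones. In depth-matched cells without Ccl12, described below, it stood at 1.31 and 22 CPM. The summed 10 monocyte markers stood at 35.4 and 17.3 CPM, against 5.25 and 4.63 CPM. Both sums lay far below the 38181 and 36057 CPM of the 11 microglia markers in the same cells, and their part in the results was not tested.

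On the mouse build GRCm38, Ccl12 lies on chromosome 11 at chr11:82101845-82103400, plus strand. Ccl2 (chr11:82035571-82037453), Ccl7 (chr11:82045712-82047525) and Ccl11 (chr11:82057823-82062955) precede it on the same strand, and Ccl8 (chr11:82115185-82116799) follows it. The 250 bases before the RefSeq start (GRCm38.p6) are shown for 4 genes. Ccl12 defines the class, Ccl8 is a neighbour with 0 UMIs in these cells, and Isg15 and Ifit3 are among the genes with the highest ratios. The ISRE core was taken as GAAA, 2 bases of any kind and GAAA again. Capitals mark the TATAAA box in Ccl12 and Ccl8, and matches to the ISRE core, read on either strand, in Isg15 and Ifit3.
Ccl12, chr11:82101595-82101844, plus strand: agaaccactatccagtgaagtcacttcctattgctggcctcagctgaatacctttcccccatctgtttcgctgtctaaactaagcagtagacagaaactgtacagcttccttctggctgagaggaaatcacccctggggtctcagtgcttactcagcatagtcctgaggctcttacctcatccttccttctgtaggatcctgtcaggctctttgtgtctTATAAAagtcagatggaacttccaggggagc
Ccl8, chr11:82114935-82115184, plus strand: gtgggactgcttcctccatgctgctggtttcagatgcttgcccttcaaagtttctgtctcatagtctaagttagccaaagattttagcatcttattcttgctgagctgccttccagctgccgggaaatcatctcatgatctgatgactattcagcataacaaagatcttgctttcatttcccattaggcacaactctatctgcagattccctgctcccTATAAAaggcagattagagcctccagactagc
Isg15, chr4:156200819-156201068, minus strand: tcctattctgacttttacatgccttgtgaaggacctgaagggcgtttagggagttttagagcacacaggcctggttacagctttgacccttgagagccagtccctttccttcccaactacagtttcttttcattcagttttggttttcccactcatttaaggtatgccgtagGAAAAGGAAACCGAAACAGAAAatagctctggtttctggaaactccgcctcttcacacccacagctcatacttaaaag
Ifit3, chr19:34583279-34583528, plus strand: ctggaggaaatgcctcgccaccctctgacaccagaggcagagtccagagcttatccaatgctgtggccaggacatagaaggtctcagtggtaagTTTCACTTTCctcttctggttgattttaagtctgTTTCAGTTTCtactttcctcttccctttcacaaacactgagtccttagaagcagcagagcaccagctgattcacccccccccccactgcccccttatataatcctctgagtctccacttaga
Ccl12 and Ccl8 each hold 1 TATAAA, starting at -31 and -32 from the first transcribed base, and both held 0 matches to the ISRE core. Nor did either window hold the STAT dimer motif TTCNNNGAA or the NF-kB motif (GGG, 2 bases of any kind, TTTCC), also searched on both strands. Isg15 holds 3 overlapping ISRE core matches, starting at -78, -72 and -66, and Ifit3 holds 2, at -156 and -122. Promoters of Ccl2, Ccl7 and Ccl4 were not in the table used.

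Ccl12 reads were spread over many cells, but few cells held many of them. At least 1 Ccl12 UMI was found in 27.7% of the plasma-negative library's cells and 39.4% of the other library's, and no cell type free of Ccl12 was present in numbers that would give a background for that share. The Ccl12-high cells made up 0.517% (0.385% to 0.680%) of cells in the plasma-negative library. In the plasma-positive library they were 2.82% (2.51% to 3.15%). They held 21.6% and 49.1% of all Ccl12 UMIs of their library. Their median was 15 Ccl12 UMIs, with a maximum of 104, in the plasma-negative library, and 19, with a maximum of 128, in the plasma-positive library. The 10% of Ccl12-high cells with most Ccl12 held 31% and 28.2% of the class's Ccl12 UMIs. No gap marked the threshold, since 7 and 52 cells lay just inside it at 10 or 11 UMIs, and 22 and 82 cells just outside it at 8 or 9.

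**Figure D1:**
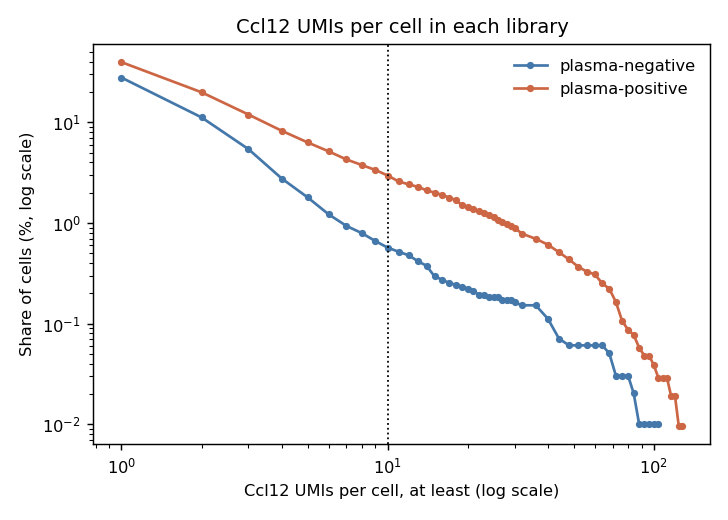
Share of cells (%, log scale) with at least the number of Ccl12 UMIs on the horizontal axis (log scale), for the plasma-negative and plasma-positive libraries, with a dotted line at the threshold of 10. The plasma-positive curve lies above the plasma-negative one over the whole range and neither curve has a step at 10.

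Depth enters this class, because a threshold on raw counts is met more easily by a deep cell. Among plasma-negative cells, the share of Ccl12-high cells was 0.0621% below 2000 UMIs and 1.82% in the deepest of 5 depth ranges, and among plasma-positive cells it was 0.479% and 6.98%. In each of the 5 ranges the plasma-positive share was the higher. With every cell thinned to 2000 UMIs, which left out 1611 and 1253 shallower cells, 71 of 8249 plasma-negative cells (0.861%) and 300 of 9109 plasma-positive cells (3.29%) still held at least 5 Ccl12 UMIs. The ratio between the sorts was 5.45 for the Ccl12-high share and 3.83 for this thinned share, which has a lower threshold and no Ccl3 and Ccl4 limit. The 2 ratios therefore do not measure the effect of depth. At 10 or more Ccl12 UMIs, again without that limit, the thinned shares were 0.291% and 1.48%. Unthinned, the same cells gave 0.667% and 3.29% at that threshold. Unthinned, the same cells held at least 5 Ccl12 UMIs in 2.10% and 7.05% of cases.

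To see what else set these cells apart, each was matched to up to 3 cells of its own library with 0 Ccl12 UMIs and a total within 5%. All 51 plasma-negative Ccl12-high cells had 3 partners, which gave 153 matched cells (median 4438 UMIs, against 4439). In the plasma-positive library 286 of 292 had a partner, which gave 837 matched cells (median 4331 UMIs, against 4422). Median mitochondrial shares were 1.16% against 0.986%, and 1.33% against 1.27%. Levels are CPM of the summed counts, and a gene was compared where it reached 50 CPM in Ccl12-high or matched cells in each library.

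Of 3497 genes compared, 51 (1.46%) were at least 2-fold higher in Ccl12-high cells in both libraries and 1, Khdrbs3, was at least 2-fold lower (0.0286%). Of the 51, 25 stood on a list of 33 type I interferon response genes. Many of the 51 reached 50 CPM only in Ccl12-high cells and had to differ to be compared. With 50 CPM required in the matched cells of both libraries, a filter added after the data were seen, 12 of 3223 genes (0.372%) were higher and 1 lower (0.031%). Those 12 were Bst2, Slfn2, Slfn8 and Trim30a of the interferon list, and Cd52, Clec2d, Eif2ak2, Epsti1, Lgals3bp, Tor3a, Trim30d and Tspo. Within single libraries, 88 genes were higher (2.52%) and 88 lower (2.52%) among plasma-negative cells, and 61 higher (1.74%) and 5 lower (0.143%) among plasma-positive cells. The median log2 ratio over all compared genes was -0.04 and -0.10, and the values below are not corrected for it. Ribosomal protein genes were slightly higher as a group, at 103610 against 89359 CPM and 121650 against 99451 CPM, with 77 of 83 compared members higher in both libraries, against 24.4% of all compared genes.

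**Figure D2:**
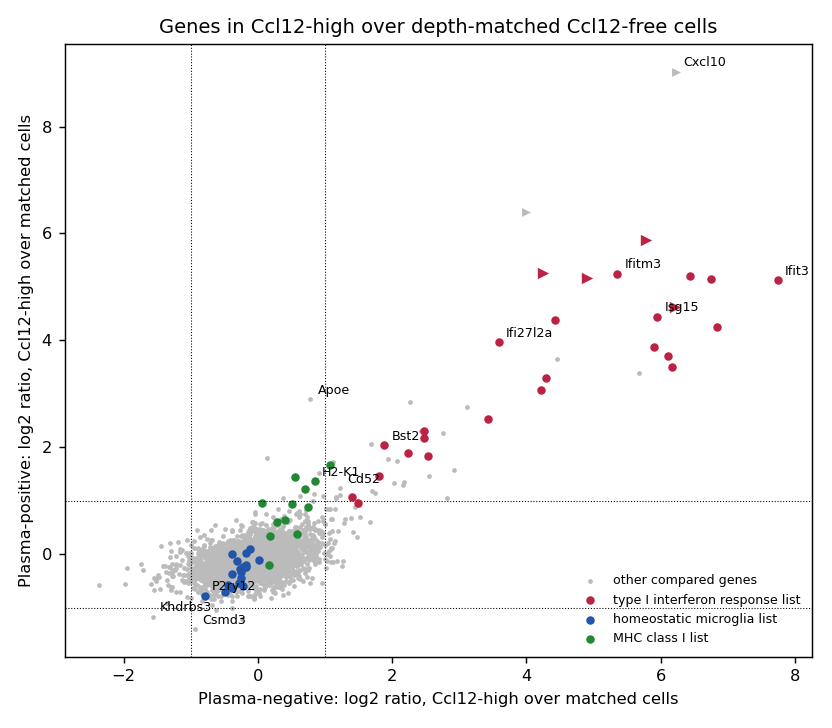
Each point is 1 compared gene, placed by its log2 ratio of CPM in Ccl12-high over matched Ccl12-free cells in the plasma-negative (horizontal) and plasma-positive (vertical) library, with dotted lines at 2-fold and triangles for lower bounds where matched plasma-negative cells were at 0. The interferon list lies in the upper right, where a gene low in matched cells had to lie to be compared, the homeostatic list lies near or below 0, and Apoe is high on the vertical axis only.

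Of the chemokine's neighbours, Ccl2 was read in both libraries and Ccl7 in the plasma-positive library. Ccl2, which encodes the CCR2 ligand MCP-1, stood at 27.6 CPM (11.1 to 56.8) in plasma-negative Ccl12-high cells against 2.63 CPM in matched cells, from 7 and 2 UMIs. In the plasma-positive library it stood at 101 CPM (86.1 to 118) against 2.78 CPM, a log2 ratio of 5.19 (4.34 to 6.17). Ccl2 was read in 5 of 51 plasma-negative Ccl12-high cells (9.80%, 3.26% to 21.4%) and in 57 of 286 plasma-positive ones (19.9%, 15.5% to 25%), against 0.654% and 1.19% of matched cells. So Ccl2 accompanied Ccl12 in a minority of the cells and at a far lower level. Ccl7 was read in 8 of 286 plasma-positive Ccl12-high cells (7.05 CPM) and in 1 of 837 matched cells, and in no plasma-negative cell of either set. Ccl11, Ccl8 and Ccl1 were at 0 in both sets of both libraries.

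Other chemokines differed in how evenly they were shared out. Cxcl10, which encodes a T cell attractant, stood at 295 CPM in plasma-negative Ccl12-high cells against 0 UMIs in matched cells, at least 75-fold higher with 3 UMIs taken as the floor over the matched group, and 59.5-fold at the lower end of the counting interval. In the plasma-positive library it stood at 241 against 0.463 CPM. Yet only 7 of 51 and 19 of 292 Ccl12-high cells held any, and the 5 highest cells held 96.0% and 93.4% of its UMIs. Cxcl16, a transmembrane chemokine, was found at 126 against 64.4 CPM and at 135 against 63.6 CPM, log2 ratios of 0.97 and 1.08. Ccl6 pointed the other way, at 122 against 188 CPM and 128 against 206 CPM. Ccr2, the receptor for Ccl12 itself, was at 7.88 and 3.85 CPM in Ccl12-high cells, from so few molecules that no direction can be read. Neither Ccl3 nor Ccl4 exceeded 14.8 CPM in Ccl12-high cells, as the rule requires.

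The type I interferon response list, summed, stood at 5985 CPM (5688 to 6294) in plasma-negative Ccl12-high cells against 596 CPM in matched cells, a ratio of 10.0 (9.03 to 11.2). In plasma-positive cells it stood at 5740.5 CPM against 786 CPM, a ratio of 7.31 (7.02 to 7.6). Of all 33 genes of the list, with no minimum level, 31 were higher and 2 at 0 in both sets of plasma-negative cells, and 33 were higher in plasma-positive cells. Over the 3497 compared genes, which had to meet the 50 CPM minimum, 45.4% and 35.8% were higher. The share over all genes without a minimum was not computed. The 4 list genes that reached 50 CPM in matched cells of both libraries included Bst2, whose product tethers budding virus, at 532 against 144 CPM and 685.5 against 167 CPM. Ddx58, which encodes the RNA sensor RIG-I, missed 2-fold in the plasma-positive library, at 51.3 against 26.4 CPM.

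Ifit3, whose product restrains viral RNA, stood at 563 against 2.63 CPM in plasma-negative and at 330 against 9.49 CPM in plasma-positive cells. The corresponding values for Isg15, a ubiquitin-like modifier, were 406 against 6.57 CPM and 317 against 14.6 CPM, log2 ratios of 5.95 (4.68 to 7.6) and 4.44 (4.06 to 4.84). Ifitm3, which blocks viral entry at endosomal membranes, was at 268 against 6.57 CPM and at 608 against 16.0 CPM. For these genes the 2 sets of cells differed by more than an order of magnitude in either library. Ifit1 (6.83 and 4.26 on the log2 scale), Rsad2, which encodes viperin (6.44 and 5.21), Oasl2 (4.43 and 4.38) and Slfn5 (6.11 and 3.71) lay in the same range. Ifit2, Ifit3b, Zbp1 and Ifi207 had 0 UMIs in matched plasma-negative cells and were there at least 74-fold, 55-fold, 19-fold and 30-fold higher by the same floor, with lower interval ends of 58.7, 43.2, 14.0 and 22.9. Their plasma-positive log2 ratios were 4.63, 5.88, 5.26 and 5.16.

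The DNA sensors of the Ifi200 family on chromosome 1 were among the highest ratios, with Ifi204 at 394 against 6.57 CPM and 300 against 20.4 CPM. Ifi211 stood at 63.0 CPM against 0 UMIs and at 78.2 against 0.926 CPM. Of the factors that carry the signal, Irf7, which drives further interferon expression, was at 142 against 1.31 CPM and 98.1 against 2.78 CPM. Stat2 was at 86.6 against 18.4 CPM and 55.1 against 14.8 CPM. Irf9 did not pass, at 110 against 59.1 CPM and 83.4 against 53.9 CPM. The receptor subunit Ifnar1 stood at 66.9 against 82.7 CPM and 68.6 against 73.8 CPM, and 0 of the 12 compared genes on the receptor and JAK-STAT list passed 2-fold in both libraries. Of 5 compared genes associated with interferon gamma, Irgm1 passed, but it was compared only through its level in Ccl12-high cells. Of the 2 that reached 50 CPM in matched cells of both libraries, 0 passed. Irf8 stood at 583 against 583 CPM and 537 against 525 CPM.

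**Figure D3:**
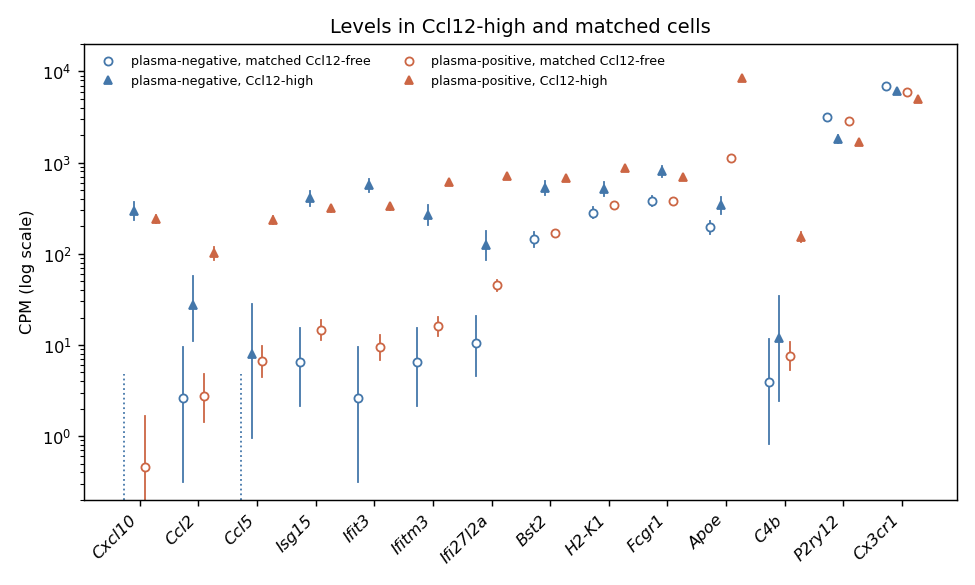
CPM (log scale) of 14 genes in Ccl12-high cells (filled triangles) and matched Ccl12-free cells (open circles) of each library, with exact Poisson intervals and a dotted bar up to the interval's upper end where no UMI was counted. Interferon-induced genes separate the 2 sets in both libraries, Apoe, C4b and Ccl5 do so by far the most in the plasma-positive library, and P2ry12 and Cx3cr1 are lower in Ccl12-high cells.

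By promoter sequence, 19 of the 40 genes among the 51 that had an entry in the RefSeq table (47.5%) held at least 1 match to the ISRE core in the 250 bases before the start, as Isg15 and Ifit3 do above. Over the 27025 genes of that table that were searched, whether or not they were expressed here, the share was 3.46%. Promoters on chromosome 18 and windows shorter than 250 bases were left out of both counts. The STAT dimer motif was found in 15% against 8.13%, the NF-kB motif in 2.5% against 1.65% and TATAAA, read on the gene's strand only, in 5% against 8.94%. Bst2 and Irgm1 were among those with 2 ISRE core matches. The shares over the 3497 compared genes were not computed. Of the 51 genes, 25 were on the interferon list, and many were compared only through their level in Ccl12-high cells. Among the 12 that also reached 50 CPM in matched cells of both libraries, Bst2, Clec2d, Slfn8, Trim30a and Trim30d held an ISRE core match. A match here is a description of letters and not a mapped binding site.

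Antigen presentation genes were higher to a smaller extent. Of all 14 MHC class I genes, 14 were higher in plasma-negative and 13 in plasma-positive cells. Of the 12 that were compared, 12 and 11 were higher, against 45.4% and 35.8% of all compared genes. The summed level of the whole list was 4134 against 3061 CPM and 6252 against 3381 CPM. H2-K1 stood at 512 against 284 CPM and at 875 against 339 CPM. H2-D1 was at 646 against 440 CPM and at 1417 against 523 CPM, so that both heavy chains had the larger ratio in the plasma-positive library. Only H2-Q4 of the list passed 2-fold in both, and its plasma-negative log2 ratio of 1.07 (-0.03 to 2.13) had an interval that included 0. H2-Q4 was compared only through its level in Ccl12-high cells. Of the 10 list genes that reached 50 CPM in matched cells of both libraries, 0 passed. The MHC class II list differed less, with ratios of 1.17 (0.934 to 1.45) and 1.20 (1.10 to 1.30).

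Fc receptors, which bind antibody, gave 1 gene past 2-fold in both libraries of 6 compared, where 1.46% of all compared genes were higher. That was Fcgr4, at 70.9 against 13.1 CPM and 105 against 21.3 CPM, compared only through its level in Ccl12-high cells. Of the 5 Fc receptor genes that reached 50 CPM in matched cells of both libraries, 0 passed. Fcgr1, the high-affinity receptor, was at 803 against 380 CPM and 693 against 384 CPM, log2 ratios of 1.08 and 0.85, whereas Fcgr3 stood near its matched level at 827 against 886 CPM and 831 against 798 CPM. Complement genes had a summed ratio of 1.14 and 1.15, and 0 of 9 passed. Lgals3bp, a secreted glycoprotein, passed at 240 against 74.8 CPM and 362 against 87.0 CPM. Cd52 and the mitochondrial translocator Tspo were also among the 51.

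The inflammatory list tied to NF-kB stood at 1980.5 against 1639 CPM and 1852 against 1565 CPM, and 0 of its 10 compared genes passed 2-fold in both libraries. Cebpb, a transcription factor of inflammatory genes, was at 346.5 against 211 CPM and 310 against 226 CPM. Il1b was read at 27.6 CPM against 0 UMIs and at 25 against 0.694 CPM, but in only 2 of 51 and 18 of 292 Ccl12-high cells. Tnf was at 11.8 against 3.94 CPM and 7.05 against 4.86 CPM, levels at which no direction can be read. Immediate early genes, which respond to cell dissociation among other things, were slightly lower as a list, at 1874 against 2268 CPM and 1733 against 1944 CPM.

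Genes of resting microglia were lower in Ccl12-high cells. All 19 listed homeostatic genes were compared and 16 were lower in both libraries, 0 higher in both, with a summed ratio of 0.832 (0.819 to 0.846) and 0.802 (0.797 to 0.807). Over all compared genes 43.3% were lower in both. P2ry12, the purinergic receptor that guides microglial processes, stood at 1819 against 3146 CPM and 1665 against 2855 CPM, log2 ratios of -0.79 (-0.94 to -0.65) and -0.78 (-0.84 to -0.72). Gpr34, a lysophospholipid receptor, was at 1799 against 2513 CPM and 1393 against 2281 CPM. Cx3cr1, the fractalkine receptor, was at 6056 against 6850 CPM and 5018 against 5944 CPM, and Tmem119 at 1095 against 1258 CPM and 1012 against 1192 CPM. These remained high in absolute terms, and none passed 2-fold.

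The other genes with the lowest ratios in both libraries were mostly sparse. Khdrbs3, which encodes an RNA-binding protein, stood at 27.6 against 81.4 CPM and 28.2 against 63.6 CPM. Csmd3, a very long gene for a membrane protein with CUB and sushi domains, was at 126 against 240 CPM and 84.6 against 223 CPM. Pmp22 was at 232 against 414 CPM and 187 against 345 CPM, and Cdkn1b, a cell cycle inhibitor, at 47.2 against 94.6 CPM and 51.3 against 90.3 CPM. The long non-coding RNA 3222401L13Rik and the genes Zfp691, Zfp157, Ralgps2 and Spg20 completed the 10, with log2 ratios between -1.35 and -0.71. For Zfp157 and Ralgps2 the plasma-negative interval included 0.

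Among themselves the Ccl12-high cells varied widely in interferon transcripts. Plasma-negative cells held a median of 7 interferon list UMIs per cell, with quartiles of 4 and 53 and a maximum of 141, and plasma-positive cells a median of 17, with quartiles of 6 and 41.2 and a maximum of 230. Matched cells had medians of 2 and 3. At least 20 interferon UMIs were found in 17 of 51 plasma-negative Ccl12-high cells (33.3%, 20.8% to 47.9%) and in 138 of 292 plasma-positive ones (47.3%, 41.4% to 53.2%). The matched cells gave 0 of 153, which allows an exact upper limit of 2.38%, and 17 of 837 (2.03%). At the other end, 16 of 51 and 51 of 292 Ccl12-high cells held at most 4 interferon UMIs, at a level of 429 and 636 CPM, against 436 and 424 CPM in matched cells within the same limit.

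These interferon-poor Ccl12-high cells still had low P2ry12, at 1993 and 1841 CPM, against 3098 and 2891 CPM in matched cells with at most 4 interferon UMIs. Their median Ccl12 count was 13.5 and 16, against 36 and 24 in the cells with at least 20 interferon UMIs. These are raw counts, and the median depths were 4517.5 and 3771 UMIs, against 4439 and 5473 UMIs. As CPM, Ccl12 stood at 3834 against 6711 in plasma-negative cells, but at 5073 against 5348 in plasma-positive cells. Plasma-positive Ccl12-high cells with 5 to 19 interferon UMIs were lower than both, at 3791 CPM. Ccl2 in the plasma-positive library was at 23.9 CPM in the interferon-poor and 147 CPM in the interferon-rich cells. MHC class I stood at 3974 and 7282 CPM in the same pair. Read from the interferon side, 17 of 65 plasma-negative cells (26.2%) and 138 of 399 plasma-positive cells (34.6%, 29.9% to 39.5%) with at least 20 interferon UMIs were Ccl12-high.

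Apoe, which encodes the lipid carrier apolipoprotein E, separated the Ccl12-high cells of the 2 sorts. In plasma-negative Ccl12-high cells it stood at 339 CPM against 197 CPM in matched cells, a log2 ratio of 0.78, but of -0.25 without the cell richest in Apoe, which held 45 of 86 UMIs. In plasma-positive cells it stood at 8410 against 1123 CPM, a log2 ratio of 2.90 (2.86 to 2.95), and 2.82 without the richest cell. At least 3 Apoe UMIs were found in 5 of 51 plasma-negative Ccl12-high and 14 of 153 matched cells. In the plasma-positive library the figures were 150 of 286 (52.4%) and 132 of 837 (15.8%). Apoe was thus most common in the plasma-positive Ccl12-high cells, where its median was 4 UMIs per cell and its highest value 780.

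With 3 UMIs as the limit for each, 147 of 286 plasma-positive Ccl12-high cells held both, 116 interferon transcripts only, 3 Apoe only and 20 neither. Of their 837 matched cells, 89 held both, 358 interferon transcripts only, 43 Apoe only and 347 neither. At this limit, cells with interferon transcripts only were about as frequent in both sets (40.6% and 42.8%), whereas cells with both were 51.4% and 10.6%. The limit is low for the interferon list, since the median of the matched cells was itself 3 UMIs. At 20 or more interferon UMIs, with any Apoe count, the shares were 47.3% of all 292 Ccl12-high cells and 2.03% of the matched cells. Of 51 plasma-negative Ccl12-high cells, 4 held both, 36 interferon transcripts only, 1 Apoe only and 10 neither, and of 153 matched cells 9, 59, 5 and 80 did. No plasma-negative Ccl12-high cell combined at least 20 interferon UMIs with 3 Apoe UMIs, but only 17 and 5 of the 51 met each limit. In the plasma-positive library 78 of 292 combined them, where 138 of 292 met the interferon limit. The Apoe limit was met by 150 of the 286 with a partner. Whether these overlaps differ from what the separate shares give was not tested. In the plasma-positive library, 137 Ccl12-high cells with at most 2 Apoe UMIs had an interferon level of 5406 CPM, and the 73 cells with at least 50 Apoe UMIs had 6412 CPM. So plasma-positive Ccl12-high cells with little Apoe carried interferon transcripts too. Between the same 2 sets, MHC class I stood at 4824 and 7942 CPM, Lyz2, which encodes lysozyme, at 326 and 958 CPM, and P2ry12 at 2006 and 1280 CPM. Ccl2 was at 105 and 88.2 CPM.

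**Figure D4:**
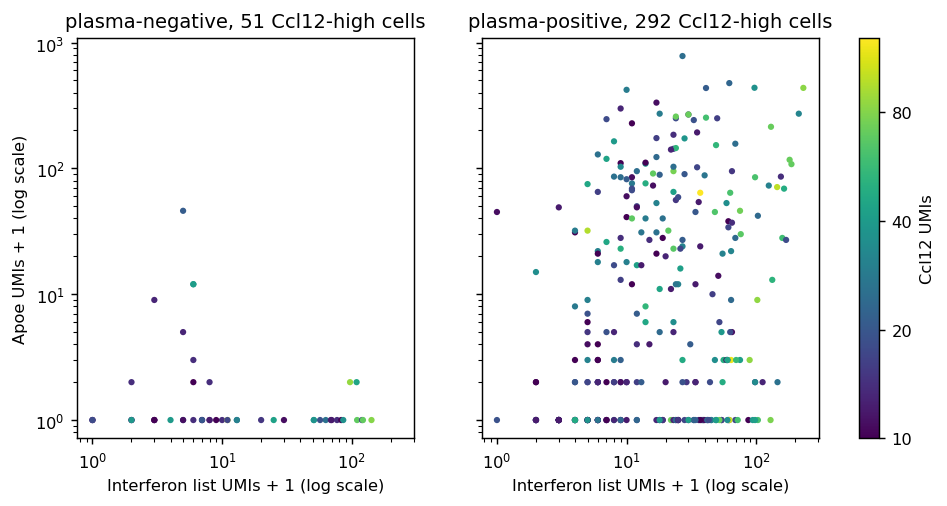
Each point is 1 Ccl12-high cell, placed by its interferon list UMIs and its Apoe UMIs (each plus 1, log scales) and coloured by its Ccl12 UMIs, for the plasma-negative (51 cells) and plasma-positive (292 cells) libraries. Plasma-negative cells lie along the bottom, with Apoe in few of them, and plasma-positive cells also fill the upper part.

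Most cells with at least 10 Apoe UMIs were not Ccl12-high. In the plasma-positive library 130 of 688 such cells (18.9%) were, against 2.82% of all its cells. Of those that held fewer than 5 interferon UMIs, 7 of 235 were (2.98%, 1.21% to 6.04%). In the plasma-negative library these counts were 3 of 141 (2.13%) and 1 of 103 (0.971%), against 0.517% of all its cells. The Ccl12-high share of all cells with fewer than 5 interferon UMIs was not computed. With at least 20 interferon UMIs, 60 of 223 plasma-positive cells under 3 Apoe UMIs (26.9%, 21.2% to 33.2%) and 78 of 176 at 3 or more (44.3%, 36.8% to 52.0%) were Ccl12-high, with median depths of 4246 and 6134 UMIs.

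Cells below the threshold were grouped in the same way. Over cells with totals in the interquartile range of the Ccl12-high cells, the interferon list stood at 655 CPM in 2892 plasma-negative cells with 0 Ccl12 UMIs, 678 CPM at 1 or 2, 1055 CPM at 3 or 4 and 1283 CPM at 5 to 9. Plasma-positive cells gave 782, 947, 1343 and 2371 CPM over the same ranges. The highest range, 40 Ccl12 UMIs or more, gave 14510 CPM in 8 plasma-negative and 9493 CPM in 35 plasma-positive cells. In plasma-positive cells the level was higher at each step of Ccl12, also without the cell richest in interferon UMIs of each group. In plasma-negative cells single cells carried the middle steps. The 14 cells at 10 to 19 Ccl12 UMIs had 2199 CPM, or 966 CPM without their richest cell, and the 3 cells at 20 to 39 had 5409 CPM, or 629 CPM without theirs. The 8 cells at 40 or more had 11890 CPM without theirs. P2ry12 was 3026 CPM at 0 Ccl12 UMIs and 2150 CPM at 5 to 9 in the plasma-negative library, and 2859 and 2189 CPM in the plasma-positive one. Apoe was 176 and 191 CPM over that span in plasma-negative cells, but 544 and 2611 CPM in plasma-positive cells. Ccl2 reached 11.5 CPM (3 UMIs) and 23.7 CPM at 5 to 9 Ccl12 UMIs.

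**Figure D5:**
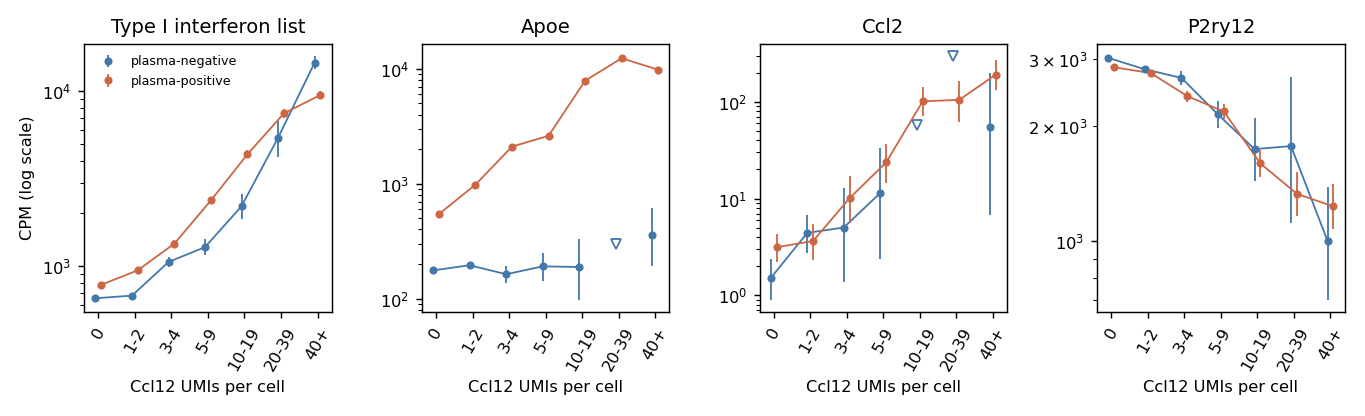
CPM (log scale) of the interferon list, Apoe, Ccl2 and P2ry12 in cells grouped by Ccl12 UMIs, within the interquartile depth of the Ccl12-high cells of each library, with exact Poisson intervals and open triangles at the interval's upper end where no UMI was counted. At 40 or more Ccl12 UMIs the interferon list is higher and P2ry12 lower than at 0 in both libraries, and Apoe is higher at high Ccl12 in the plasma-positive library, while the 3 plasma-negative groups at 10 or more rest on 14, 3 and 8 cells.

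The limit on Ccl3 and Ccl4 set aside 5 plasma-negative and 14 plasma-positive cells that met the Ccl12 threshold. Their Ccl12 level of 5865 and 5517 CPM was near the 5213 and 4775 CPM of the class. Other chemokines were far higher in them, with Ccl2 at 537 and 1776 CPM against 27.6 and 94.7 CPM, and Ccl5 at 1164 and 1310 CPM against 7.88 and 220 CPM. Immediate early genes stood at 4791 and 5428 CPM against 1874 and 1755 CPM. These cells are too few for more than this description, and the members' own choice fixed part of the contrast.

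Between the sorts, a gene was compared where it reached 50 CPM in the Ccl12-high cells of either library. A gene low in 1 sort thus had to be high in the other to be compared. Of 3814 such genes, 44 (1.15%) were at least 2-fold higher in plasma-positive than in plasma-negative Ccl12-high cells and 79 (2.07%) at least 2-fold lower. This split depended on the scale: with ratios centred on the median gene, which stood at -0.11 on the log2 scale, 66 were higher and 53 lower. With mitochondrial, ribosomal protein and Ccl12 UMIs left out of the total, 70 were higher and 80 lower. Few of these genes rest on many molecules, since the 51 plasma-negative cells held 253972 UMIs in all. The interferon list as a whole was close between the sorts, at 5985 and 5487 CPM, and the homeostatic list likewise, at 77276 and 77049 CPM. Without its member Cst3 the homeostatic list stood at 34527 CPM in plasma-negative and 32196 CPM in plasma-positive Ccl12-high cells, a ratio of 0.9325 (0.912 to 0.954).

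Highest in plasma-positive Ccl12-high cells were Ccl5, Apoe, C4b, Cxcl9, H2-Q7, Ifi27l2a, Stmn1 and Cd72. Apoe stood at 8093 against 339 CPM, a log2 ratio of 4.58 (4.27 to 4.90). In matched Ccl12-free cells Apoe also differed between the sorts, at 1123 against 197 CPM, a log2 ratio of 2.51 (2.28 to 2.76). C4b, complement component 4, was at 152 against 11.8 CPM and was read in 35.0% of the plasma-positive Ccl12-high cells that had a partner, against 1.79% of their matched cells. Ifi27l2a, an interferon-induced gene, was at 677 against 126 CPM, and matched Ccl12-free cells also differed between the sorts, at 45.4 against 10.51 CPM. Ccl5, which attracts T cells, was at 220 against 7.88 CPM, but 31 of 292 cells held it and 5 of them 59.1% of its UMIs. Cxcl9, an attractant for CXCR3, was at 88.1 against 7.88 CPM, and 5 of 292 cells held 93.2% of its UMIs. Cd72, a receptor of B cells and myeloid cells, was at 125 against 27.6 CPM. The plasma-negative values of C4b, Ccl5 and Cxcl9 rest on 3, 2 and 2 UMIs, and those of H2-Q7, Stmn1 and Cd72 on 2, 3 and 7. All of these genes but Apoe and Ifi27l2a reached 50 CPM only in plasma-positive Ccl12-high cells and were compared only through that level.

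At the other end stood Lgals3, Slc4a1ap, Cpox, Prkx, Gabarapl1, Ifit3b and 2900076A07Rik. All of these but Ifit3b reached 50 CPM only in plasma-negative Ccl12-high cells and were compared only through that level. For Slc4a1ap, Cpox, Gabarapl1 and 2900076A07Rik it rested on 15, 13, 14 and 14 UMIs. All 17 Lgals3 UMIs of the plasma-negative Ccl12-high cells came from 1 cell, and 70.4% of the 27 Prkx UMIs from 1 cell. Ifit3b was at 63.5 CPM in plasma-positive against 217 CPM in plasma-negative Ccl12-high cells, a log2 ratio of -1.77 (-2.25 to -1.27). Other members of that family pointed the same way, with Ifit2 at 119 against 291 CPM and Ifit3 at 315 against 563 CPM. Ifitm3 pointed the other way, at 574 against 268 CPM.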

How the data were processed

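Per the file headers, the deposited matrices are Cell Ranger 6.1.2 output in which each entry is an unnormalised count of UMIs, while the submitters' processing notes name version 3.0.1. The genome build, annotation, and use of strand are not given in the sources used here. Cell barcodes were not used here, so barcodes shared between libraries were not counted. The libraries held 34549522 and 42006454 UMIs, and the filters removed 18 and 28 cells. GENCODE M21 (GRCm38), which matched 30934 of 31053 identifiers, gave coordinates.

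Counts were summed over cells and divided by their total UMIs. Matching took the nearest totals without replacement, deepest Ccl12-high cells first. Poisson, binomial (Clopper-Pearson) and conditional binomial intervals came from scipy 1.17.1 (numpy 2.4.6, pandas 2.3.3), and the scripts were tested on simulated data. A matched group at 0 was set to 3 counts. Scrublet (scanpy 1.11.5) called 0 doublets by its automatic threshold and so had not worked. Doublets were kept, and removal of the highest scores was tried as an alternative.

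Named genes were the 15 highest and 10 lowest ratios with the same sign in both libraries, ranked by the library with the smaller absolute ratio, the 8 highest and 8 lowest between sorts, and listed genes. Some of these are not reported here. Cd52, Tspo, Bst2, Irgm1, Cd9 and some list members beyond the 4 the rule allows were chosen for naming with their values in view. The members and the 24 gene lists were chosen with earlier results of these data known. Alternatives covered thresholds, filters, scaling, matching, thinning and doublets. Genes were not corrected for length, since only transcript ends are counted, and antisense or closely similar genes such as Ifit3 and Ifit3b, the Ifi200 and Schlafen families and H2 heavy chains may share reads.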

Additional observations from a re-analysis of the deposited data

Results flagged for a closer look

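Cd9, Aldoa and Cd14 pointed in opposite directions in the 2 libraries, each with an interval on its own side of 0, although the difference itself was not tested. Cd9, a tetraspanin, had a log2 ratio of Ccl12-high over matched cells of 0.20 (0.02 to 0.38) in the plasma-negative and -0.46 (-0.55 to -0.38) in the plasma-positive library, a difference of -0.66. Aldoa, a glycolytic enzyme, had 0.62 and -0.42, a difference of -1.04, and Cd14, a co-receptor for lipopolysaccharide, 0.59 and -0.40, a difference of -0.99. Without the 1 plasma-negative cell with most UMIs of the gene, the plasma-negative ratios were 0.09 for Cd9, 0.04 for Aldoa and 0.09 for Cd14, while the plasma-positive ratios without their top cell were -0.48, -0.44 and -0.42.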

How the results depend on the processing

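With 1 library per sort, differences between mice or sorts have no replicate check, and the 51 plasma-negative cells limit the precision of every ratio there. The summed interferon list kept its direction under each alternative run, with log2 ratios from 2.18 to 4.14 in the plasma-negative and 2.37 to 3.16 in the plasma-positive library. At a threshold of 5 Ccl12 UMIs the shares were 1.74% and 6.1%, with 29 genes higher (all among the 51) and 0 lower in both libraries and 14 higher and 1 lower between sorts. At 20 Ccl12 UMIs the shares were 0.203% and 1.39%, with 8 genes lower in both libraries and 197 higher and 406 lower between sorts. Thinning to 2000 UMIs with at least 5 Ccl12 UMIs gave 0.861% and 3.29%. A minimum of 10 CPM gave 115 genes higher and 29 lower in both libraries, and 602 higher and 574 lower between sorts. A minimum of 200 CPM gave 13 and 0, and 5 and 3. Genes lower in both libraries numbered 3 without the highest doublet scores, 2 with the mean of per-cell CPM and 2 with 1 matched cell per member. Between sorts, 119 genes were lower with the mean of per-cell CPM, 70 were higher with mitochondrial, ribosomal protein and Ccl12 UMIs left out, and depth matching of the sorts, with 51 cells in each, gave 163 higher and 202 lower. Of the 51 higher genes, 49 remained at 20 Ccl12 UMIs and 49 without the highest doublet scores, a step that took out 2 and 22 Ccl12-high cells. The filter on matched cells described above, added after the data were seen, gave 12 genes higher in both libraries. Of 589 other values recomputed under the other settings for genes and lists, 103 moved beyond their counting interval, 66 farther from 0 and 37 nearer. The log2 ratio of Zfp157 in plasma-negative cells was -0.83 at 10 and 0.0001 at 20 Ccl12 UMIs. For the values that moved, the cause was not tested. No paired analysis was possible because each sort had 1 library.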

Other observations

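Several further gene groups were close to the level of matched cells. Lysosomal genes, summed, stood at 36744 against 38291 CPM in plasma-negative and 40183 against 38982 CPM in plasma-positive cells, and 0 of 20 compared genes passed 2-fold in both libraries. Uptake receptors were at 2622 against 2965 CPM and 2582 against 2949 CPM. Oxidative phosphorylation genes encoded in the nucleus had ratios of 1.03 (0.991 to 1.08) and 1.06 (1.04 to 1.07). Of the disease-associated microglia list, Axl, a receptor for apoptotic cells, was read in 15.7% and 22.4% of Ccl12-high cells of the 2 libraries, against 0.654% and 3.23% of matched cells. Without Apoe the list's ratio was 1.09 and 1.15, whereas with it the plasma-positive ratio was 1.48. Toll-like receptor genes had ratios of 1.19 and 0.972, and iron genes of 1.19 and 1.40.

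Glycolysis genes differed between the libraries in this comparison, at 2473 against 1716 CPM (ratio 1.44, 1.31 to 1.59) in plasma-negative and 1858 against 1865 CPM (ratio 0.996, 0.955 to 1.04) in plasma-positive cells. Pkm was at 217 against 102 CPM and 114 against 107 CPM. The difference between the libraries was not tested. The plasma-negative ratio of the list member Aldoa rested largely on a single cell, as described above. How far single cells carried the summed list or Pkm was not tested. The mitotic genes Mki67 and Top2a were read in 0 of 51 and 6 of 286 Ccl12-high cells, and in 0 of 153 and 6 of 837 matched cells.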
